A study of Homo sapiens with 16 samples.

Results

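Ubiquitin-conjugating enzymes (E2s) and the ubiquitin-specific proteases (USPs) are the writers and the erasers of the ubiquitin code. Members were all genes whose symbol starts with UBE2 followed by a letter, without UBE2C and UBE2L6, and all genes whose symbol is USP followed by a number. This gave 62 of the 8704 genes with values in the tables used here, 29 E2 genes and 33 USP genes. An E1 enzyme activates ubiquitin and passes it to the active-site cysteine of an E2, which, together with an E3 ligase, joins it to a substrate or to another ubiquitin. The E2 largely sets which kind of chain is built. USPs are cysteine proteases that take ubiquitin off again, and they form the largest family of deubiquitinases in human cells. Some E2s carry not ubiquitin but a relative of it, such as NEDD8.

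The cells were HCT 116, a human colorectal carcinoma line, in which the RNA helicase DDX3X carried a mini auxin-inducible degron tag (DDX3X-mAID) and the plant F-box protein OsTIR1 was expressed from a CMV promoter. Indole-3-acetic acid (IAA, an auxin) then leads to degradation of the tagged DDX3X. The groups were lentiDDX3Y cells with IAA, lentiDDX3X cells with IAA, lentiCTRL cells with IAA, and lentiCTRL cells with DMSO, each with 2 ribosome profiling and 2 RNA-seq libraries, which makes 16 libraries. All cells, those with DMSO included, had the degron tag and OsTIR1 and were treated for 48 h, with 500 µM IAA where IAA was given. As a model the cells are limited to 1 clonal degron line, and the DDX3Y and DDX3X that replaced the tagged protein came from FLAG-tagged, partly codon-optimized cDNAs in cells sorted for a fluorescent marker.

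The values are the authors' base means, that is, normalized counts averaged over all libraries of a set. The complemented set holds the lentiDDX3Y and lentiDDX3X libraries with IAA, and the control-lentivirus set holds the lentiCTRL libraries with IAA and with DMSO. Each base mean is therefore 1 value over 2 conditions, with no SD and no n, and conditions within a set were not compared. The sets were normalized separately. Depth per library is not known from these columns, and the base means of all genes sum to 734724 for footprints and 15950128 for RNA in the complemented set, and to 604809 for footprints and 15611333 for RNA in the control-lentivirus set. Of 9 colorectal epithelium markers, 6 were listed in both sets, with KRT8, KRT18, KRT19 and EPCAM above the 94th percentile of RNA level per kb in the control-lentivirus set and CDH1 and CDX2 at the 27.1 and 28.8 percentiles, while KRT20, VIL1 and CDX1 had no row. Of 7 markers of other cell types, COL1A1 alone had a row, and that in the control-lentivirus set only.

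To show how alike the coding sequences of some E2s are, 28-nt stretches around the active site were read from the canonical transcripts (GENCODE v44, GRCh38). Each starts at the codon of the conserved asparagine of the His-Pro-Asn motif and runs to the first base after the codon of the catalytic cysteine, which is in capitals. They are shown for the UBE2D genes, for UBE2A and UBE2B, and for UBE2N.
UBE2D1: aacataaacagtaatggaagtattTGTc
UBE2D2: aatattaacagtaatggcagcattTGTc
UBE2D3: aatattaacagtaatggcagcattTGTc
UBE2A: aatgtctatgcagatggtagtataTGTc
UBE2B: aatgtgtatgctgatggtagcataTGTt
UBE2N: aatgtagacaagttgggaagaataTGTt
The stretch of UBE2D2 (chr5:139614891-139614918, plus strand) and that of UBE2D3 (chr4:102801502-102801529, minus strand) are the same, so a footprint of this length from here cannot be assigned to either. The stretch of UBE2D1 (chr10:58364801-58364828, plus strand) occurs nowhere else in the genome outside its gene. That of UBE2N (chr12:93411068-93411095, minus strand) occurs at 2 other places in the genome. The stretches of UBE2A and UBE2B each lie over 2 exons and have no exact copy elsewhere. In all, 15 of the 29 E2 genes have this motif with the cysteine at this distance, and in 6 of the 15 the stretch occurs again elsewhere.

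For the USPs, the stretch around the catalytic cysteine was read in the same way, from the glycine codon that opens the cysteine box to the first base after the cysteine codon, again in capitals. USP11 and USP14 are shown as the USPs with the highest footprint density, and USP38, USP34 and USP25 as those with the lowest in the control-lentivirus set. In the complemented set USP32 was lower than USP38 and USP25.
USP11: ggcctcaccaatctgggcaacacgTGCt
USP14: ggattgacaaaccttggtaacactTGTt
USP38: ggtcttattaacctaggaaatacaTGTt
USP34: ggccttactaaccttggagctactTGTt
USP25: gggctaaagaatgttggcaatactTGTt
These lie in 1 coding exon each, at chrX:47240829-47240856 (USP11, plus strand), chr18:180251-180278 (USP14, plus strand), chr4:143206159-143206186 (USP38, plus strand), chr2:61265465-61265492 (USP34, minus strand) and chr21:15791617-15791644 (USP25, plus strand). The box was found in 25 of 33 USP genes, and all 25 stretches differ from each other. In 1 of the 25, that of USP8, the stretch has another exact copy in the genome.

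E2 genes had short, abundant messages and USP genes long messages of about average abundance. Per kb of coding sequence, the median RNA level was 1305 for the E2 genes and 602 for all genes in the control-lentivirus set (base mean per kb), 2.17-fold higher, and 27 of 29 E2 genes were above the median of all genes. The median USP gene had 585 per kb, and 16 of 33 were above that median. In bulk libraries like these, fewer cells with a message and less of it per cell cannot be told apart. Footprints separated the families more. In the complemented set the median footprint level was 107 per kb for the E2 genes, 15.3 per kb for the USP genes and 38.7 per kb for all genes. In the control-lentivirus set it was 73.5 per kb for the E2 genes, 8.10 per kb for the USP genes and 24.6 per kb for all genes, so the E2 median there was 2.99-fold and the USP median 0.330-fold that of all genes. The order was the same in both sets, although levels cannot be compared between them.

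**Figure D1:**
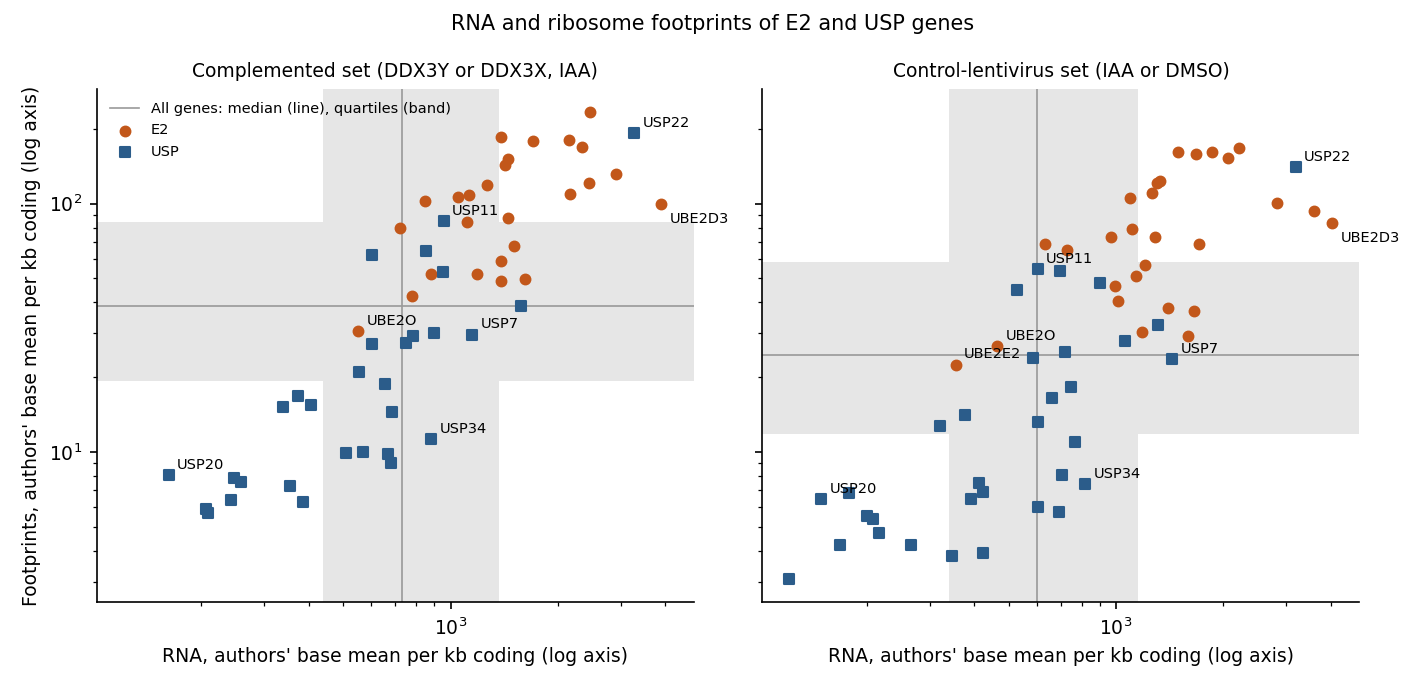
RNA (x axis) and ribosome footprints (y axis) of each E2 gene (circles) and USP gene (squares), as the authors' base mean per kb of coding sequence on log axes, in the complemented set (left) and the control-lentivirus set (right), with the median and quartiles of all genes as lines and bands. Of the E2 genes 1 is not drawn. In the control-lentivirus set 28 of all 29 E2 genes and 8 of 33 USP genes lie above the median footprint level of all genes.

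Footprints relative to RNA give the ribosome density on a message. Relative footprint density is the log2 ratio of the footprint and RNA base means minus the median of that ratio over all genes of the same set, so that 0 is the middle gene and coding length cancels. Its median over the E2 genes was 0.38 in the complemented set and 0.47 in the control-lentivirus set, and over the USP genes -0.86 in the complemented set and -0.87 in the control-lentivirus set. The E2 median thus lay 1.25 above the USP median in the complemented set and 1.34 above it in the control-lentivirus set (log2). Of the 27 E2 genes in both sets, 16 were above 0 in both, 9 below 0 in both and 2 changed sign. Of the 30 USP genes in both sets, 3 were above 0 in both, 25 below 0 in both and 2 changed sign. Within the control-lentivirus set, 7 of 33 USP genes and no E2 gene were in the lowest 10% of all genes by density. No test was made, because genes are not replicates and no value per library was used.

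The only gauge of error in these columns is how far a gene's density moves between the 2 sets, which also holds any true difference between them. Over the 7386 genes in both sets this difference, centred on its median, had an SD of 0.33 (log2), and 95% of genes moved by less than 0.68. A bias of a gene that is the same in both sets does not enter this SD. The SD is therefore no error for a difference between genes. Pearson's r between the densities of the sets was 0.95 over the 27 E2 genes and 0.95 over the 30 USP genes, against 0.96 over all 7386 genes, given as a description across genes. Footprints were few. In the control-lentivirus set 12 E2 and 13 USP genes had a footprint base mean of at least 50, and 3 E2 and 3 USP genes one above 100.

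**Figure D2:**
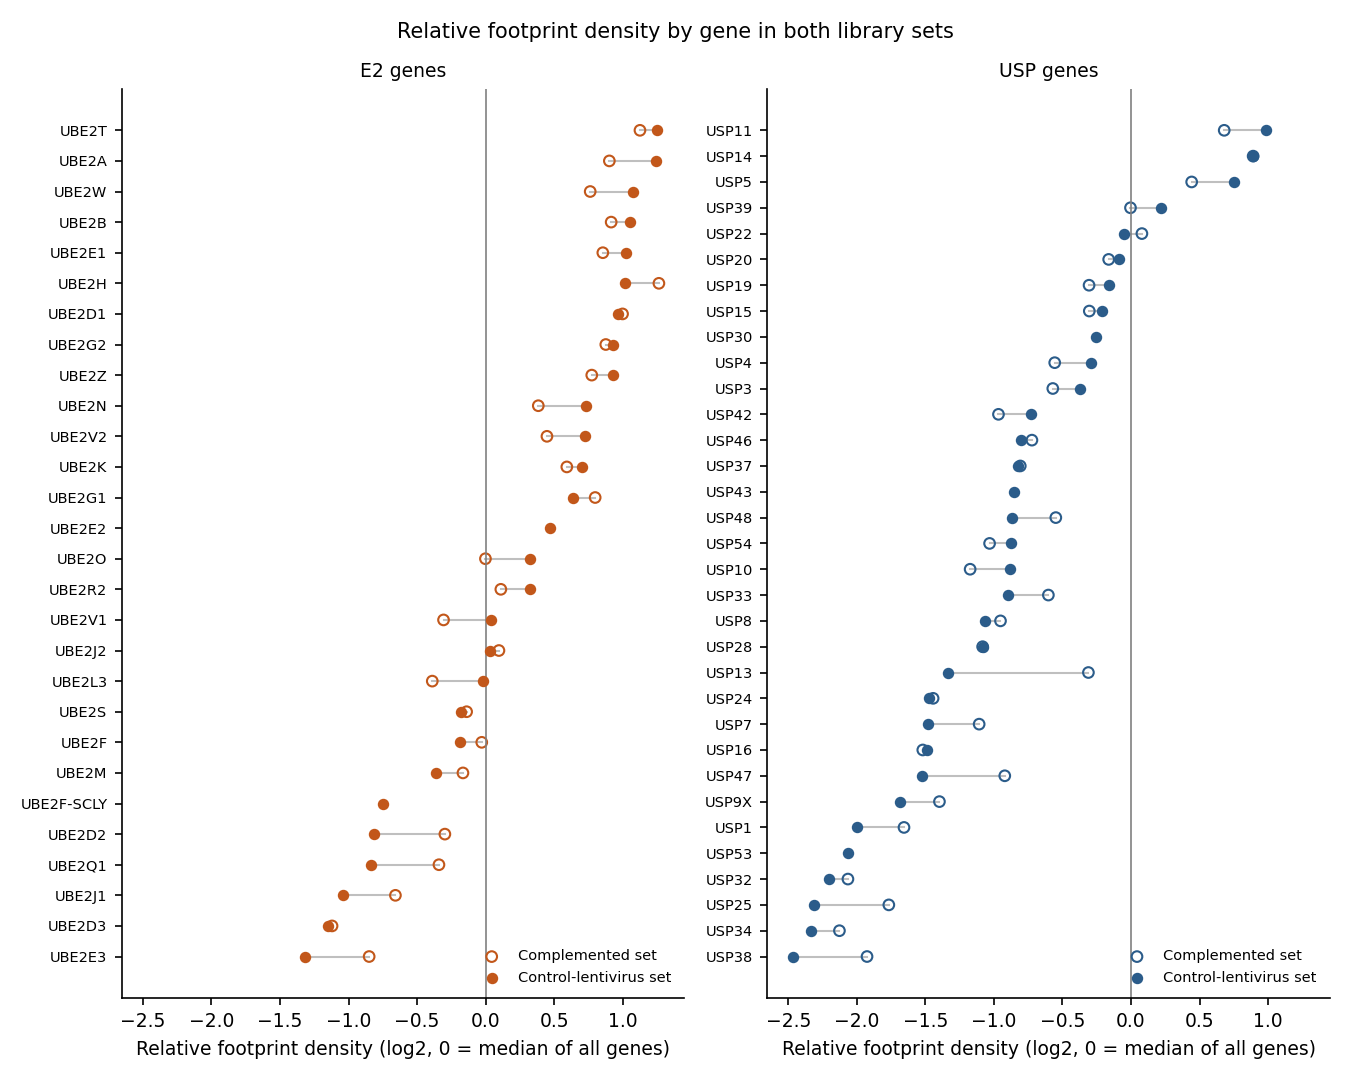
Relative footprint density (log2, x axis) of the E2 genes, 1 of which is not drawn (left), and of every USP gene (right), open circles for the complemented set and filled circles for the control-lentivirus set, joined by a line for each gene and ordered by the control-lentivirus value. UBE2T (1.25) and UBE2A (1.24) top the E2 genes and USP11 (0.98) the USP genes, and USP13 shows the longest line.

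Among the E2s that work with many E3 ligases or place the first ubiquitin, UBE2D3 and UBE2D2 had some of the highest RNA levels and among the lowest densities. UBE2D3 had an RNA base mean of 1722 in the complemented set and 1781 in the control-lentivirus set, or 4040 per kb there, the highest of the family. Its footprint base means were 44.03 in the complemented set and 36.7 in the control-lentivirus set, which give densities of -1.12 in the complemented set and -1.15 in the control-lentivirus set. UBE2D2 had 3587 RNA per kb in the control-lentivirus set and densities of -0.30 in the complemented set and -0.82 in the control-lentivirus set.

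UBE2D1, the third measured member of this subfamily, was listed with a higher density than both. Its RNA level was 727 per kb in the control-lentivirus set, against 4040 per kb for UBE2D3, yet its density was 1.00 in the complemented set and 0.97 in the control-lentivirus set. UBE2D1 lay above UBE2D3 by 2.12 in the complemented set and 2.11 in the control-lentivirus set, and above UBE2D2 by 1.30 in the complemented set and 1.78 in the control-lentivirus set. These gaps are larger than the SD of 0.33 between sets, which does not measure the error of a difference between genes. Their direction was set by which genes are listed. At the RNA base means of UBE2D1, the lowest footprint base mean of each set would still give a density above those of UBE2D2 and UBE2D3. Only the size of the gaps was free to vary, and whether the genes differ in density was not tested. The coding sequences of UBE2D2 and UBE2D3 are identical at 382 of 441 aligned bases (86.6%) and share 53 windows of 28 nt, while UBE2D1 shares no such window with UBE2D2 or with UBE2D3. UBE2D4 had no row in either set.

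The UBE2E genes, which have a longer amino-terminal extension, split in the same way. UBE2E1 had a density of 0.85 in the complemented set and 1.02 in the control-lentivirus set. UBE2E3 had -0.85 in the complemented set and -1.32 in the control-lentivirus set, the lowest of all E2 genes there, from footprint base means of 30.9 in the complemented set and 18.1 in the control-lentivirus set. UBE2E1 thus lay above UBE2E3 by 1.70 in the complemented set and 2.34 in the control-lentivirus set. UBE2E2 was listed in the control-lentivirus set only, at 355 RNA per kb, the lowest level of the family, with a density of 0.47 from a footprint base mean of 13.5. At its RNA base mean of 214, the lowest footprint base mean of that set (10.0) would still give a density above 0. UBE2W, which attaches ubiquitin to amino termini, had a density of 0.76 in the complemented set and 1.07 in the control-lentivirus set.

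These low densities stood beside coding sequence that is not unique. Of the 28-nt windows of the UBE2D3 coding sequence, 72.2% occur elsewhere in the genome or in the coding sequence of another gene, and of those of UBE2E3 65.3%. For UBE2D2 the share was 12.8%, and for UBE2D1, UBE2E1 and UBE2E2 it was 0. Longer windows of 65 nt, closer to an RNA-seq read, were shared in 21.8% of cases for UBE2D3, 34.8% for UBE2E3 and 4.24% for UBE2D2. Of all genes in the control-lentivirus set 58.4% have no shared 28-nt window and 9.15% have more than 50% of them shared. Among the E2 genes 15 of 29 have none and 9 of 29 more than 50%. Of those 9 genes 6 had a density below 0, against 4 of the other 20. Over all genes of that set, 49.2% of those with more than 50% of windows shared were below 0. How reads that map to several places were counted is not given in the sources used here, and the part of shared windows in these densities was not tested.

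**Figure D3:**
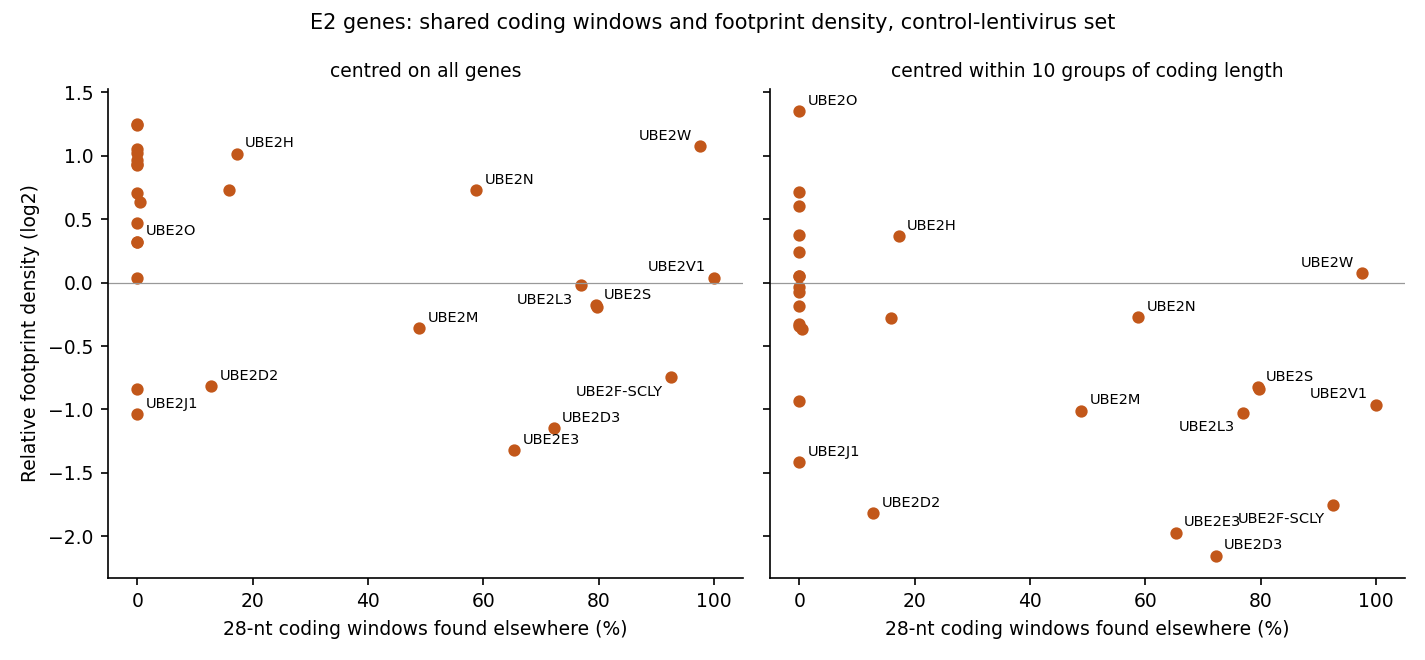
Share of a gene's 28-nt coding windows that occur elsewhere in the genome or in another gene's coding sequence (x axis, %) against relative footprint density (log2, y axis) for the E2 genes, 1 of which is not drawn, in the control-lentivirus set, with density centred on all genes (left) and within 10 groups of coding length (right). UBE2D3 and UBE2E3 combine 72.2% and 65.3% of shared windows with the lowest densities on the left, while UBE2J1 is low with 0% and UBE2W high with 97.7%.

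The match was not complete in either direction. UBE2J1, a tail-anchored E2 of degradation at the endoplasmic reticulum, had no shared window and a density of -0.66 in the complemented set and -1.04 in the control-lentivirus set. Its partner in that role, UBE2J2, had 0.10 in the complemented set and 0.03 in the control-lentivirus set. UBE2Q1 also had no shared window, with -0.34 in the complemented set and -0.84 in the control-lentivirus set. UBE2W had 97.7% of its 28-nt windows shared and a high density. Of its 65-nt windows 97.4% were shared, against 21.8% for UBE2D3. The share also counts windows in the coding sequence of a gene that overlaps the same place. These were not separated from copies at other places. Across the E2 genes, Spearman's rho between the shared share and density was -0.46 in the complemented set (27 genes) and -0.37 in the control-lentivirus set (29 genes), against -0.01 over 7422 genes and 0.00 over 8646 genes. These are descriptions across genes that share libraries.

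The E2s of chain building through other routes had mostly high densities. The 4 E2s listed here for degradation chains of the K48 type were above 0 in both sets. UBE2K had 0.59 in the complemented set and 0.70 in the control-lentivirus set, UBE2G1 0.80 and 0.64 in the same order, and UBE2G2 0.88 in the complemented set and 0.93 in the control-lentivirus set. UBE2R2, a relative of CDC34 that serves cullin ligases, was nearest to the middle with 0.11 in the complemented set and 0.32 in the control-lentivirus set. CDC34 itself, not a member by its symbol, was below 0, with -0.20 in the complemented set and -0.59 in the control-lentivirus set. UBE2S, which extends chains on substrates of the anaphase-promoting complex, was at -0.14 in the complemented set and -0.18 in the control-lentivirus set, with 79.5% of its windows shared.

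UBE2N and its catalytically inactive partners UBE2V1 and UBE2V2 build signalling chains that do not lead to degradation. UBE2N was among the most abundant E2s, at 2342 RNA per kb in the complemented set and 2209 RNA per kb in the control-lentivirus set, with densities of 0.38 in the complemented set and 0.73 in the control-lentivirus set. UBE2V2 was close to it, with 0.45 in the complemented set and 0.73 in the control-lentivirus set. UBE2V1 was lower, with -0.31 in the complemented set and 0.04 in the control-lentivirus set, and 100% of its 28-nt windows were shared, against 15.9% for UBE2V2. UBE2N had 58.7% of its windows shared and a density like that of UBE2V2.

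The 3 E2s of DNA repair had high densities but were not alone at the top. UBE2W (1.07) lay above UBE2B in the control-lentivirus set. UBE2H (1.26) and UBE2D1 (1.00) lay above UBE2A and UBE2B in the complemented set. UBE2T, the E2 of the Fanconi anaemia pathway, had a density of 1.13 in the complemented set and 1.25 in the control-lentivirus set, while its RNA level was the third lowest of the family in the control-lentivirus set (634 per kb). UBE2A and UBE2B, the human counterparts of yeast RAD6, are identical at 367 of 456 coding bases (80.5%) and share no 28-nt window. UBE2A had 0.90 in the complemented set and 1.24 in the control-lentivirus set, and UBE2B had 0.92 in the complemented set and 1.05 in the control-lentivirus set. Their RNA base means were also near each other, 662 for UBE2A and 775 for UBE2B in the complemented set, and 682 for UBE2A and 766 for UBE2B in the control-lentivirus set. The difference between them, UBE2A minus UBE2B, was -0.01 in the complemented set and 0.19 in the control-lentivirus set, less than the SD between sets.

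Of the NEDD8 E2s, UBE2M had 2449 RNA per kb in the complemented set and 2835 in the control-lentivirus set, and densities of -0.17 in the complemented set and -0.36 in the control-lentivirus set. UBE2F was at 1010 RNA per kb in the control-lentivirus set, with densities of -0.03 in the complemented set and -0.19 in the control-lentivirus set. UBE2F-SCLY, a readthrough gene that spans UBE2F, was listed in the control-lentivirus set only, with a density of -0.75, and 92.6% of its windows are shared, so its reads cannot be told apart from those of the genes it spans. UBE2Z, which takes its ubiquitin from the E1 enzyme UBA6, had 0.77 in the complemented set and 0.93 in the control-lentivirus set, and the highest RNA base mean of the family in both sets (2609 in the complemented set and 1977 in the control-lentivirus set).

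Of the remaining E2s, UBE2H had the highest density of the family in the complemented set, 1.26, against 1.02 in the control-lentivirus set. UBE2L3, a partner of HECT and RBR ligases, had -0.39 in the complemented set and -0.02 in the control-lentivirus set. UBE2O, a giant enzyme that joins E2 and E3 function, has a coding sequence of 3876 nt, against a family median of 549 nt. It had a low RNA level, 551 per kb in the complemented set and 465 per kb in the control-lentivirus set, and densities of 0.00 in the complemented set and 0.32 in the control-lentivirus set.

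Among the USPs that serve the proteasome and recycle free chains, USP14 and USP5 had high densities and USP13 a low one. USP14, which sits on the proteasome, had footprint base means of 91.9 in the complemented set and 66.3 in the control-lentivirus set, and a density of 0.89 in both. USP5, which takes apart unanchored chains, had footprint base means of 166 in the complemented set and 138 in the control-lentivirus set, and densities of 0.44 in the complemented set and 0.75 in the control-lentivirus set.

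USP13, the paralogue of USP5, showed the largest difference between sets of all USPs. It is named here because of that value, seen in the data. Its footprint base mean was 43.4 in the complemented set and 19.4 in the control-lentivirus set, while its RNA base mean was 969 in the complemented set and 1070 in the control-lentivirus set. Density was -0.31 in the complemented set and -1.34 in the control-lentivirus set. The centred difference of 1.09 was larger in size than that of 99.5% of shared genes or equal to it, and USP13 was the only one of the 57 members in both sets beyond the 95th percentile. USP5 lay above USP13 by 0.75 in the complemented set and 2.09 in the control-lentivirus set. The footprint numbers behind USP13 are small, and the sets differ in cells and treatment as well as in normalization, so these cannot be told apart.

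Of the USPs known for p53 and its ligase MDM2 and their relatives, USP11 had the highest density of all USPs in the control-lentivirus set. USP11 had RNA base means of 2639 in the complemented set and 1664 in the control-lentivirus set, and footprint base means of 235 in the complemented set and 150.3 in the control-lentivirus set. Its densities were 0.68 in the complemented set and 0.98 in the control-lentivirus set. USP4 and USP15, its closest relatives, were lower, USP4 with -0.56 in the complemented set and -0.29 in the control-lentivirus set, and USP15 with -0.30 in the complemented set and -0.21 in the control-lentivirus set. USP11 lay above USP15 by 0.98 in the complemented set and 1.19 in the control-lentivirus set. USP4 and USP15 differed from each other by less than the SD between sets in both.

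USP7, the deubiquitinase of MDM2 and p53, was one of the most abundant USP messages and a weakly occupied one. Its RNA base means were 3802 in the complemented set and 4744 in the control-lentivirus set, beside footprint base means of 98.1 in the complemented set and 78.0 in the control-lentivirus set. This gave densities of -1.11 in the complemented set and -1.48 in the control-lentivirus set. USP10, which binds the stress-granule protein G3BP1, had -1.17 in the complemented set and -0.88 in the control-lentivirus set. Of its 28-nt windows 41.4% are shared, the highest share of any USP. USP7 and USP10 changed places between the sets, so their order is not set by these values.

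USP22, the deubiquitinase subunit of the SAGA coactivator that acts on histone H2B, had the highest RNA level per kb of the USPs. Its RNA base means were 5150 in the complemented set and 5018 in the control-lentivirus set, and its footprint base means 303 in the complemented set and 221 in the control-lentivirus set. It alone made up 21.4% of the summed footprint level per kb of the USP genes and 15.3% of their summed RNA level in the control-lentivirus set. Its density was near that of the middle gene, 0.08 in the complemented set and -0.05 in the control-lentivirus set. USP27X and USP51, which can take its place in the module, had no row in either set. USP3 and USP16, which act on histone H2A, had densities of -0.57 for USP3 and -1.52 for USP16 in the complemented set, and -0.37 for USP3 and -1.49 for USP16 in the control-lentivirus set.

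The USPs of DNA repair were all below 0, as most USP genes were. Below 0 were 26 of 30 USP genes in the complemented set and 29 of 33 in the control-lentivirus set. USP1, which takes ubiquitin off FANCD2 and PCNA, had -1.66 in the complemented set and -1.99 in the control-lentivirus set. USP46, which like USP1 is activated by WDR48, had -0.72 in the complemented set and -0.80 in the control-lentivirus set, and its paralogue USP12 had no row. USP47 had -0.92 in the complemented set and -1.53 in the control-lentivirus set, from footprint base means of 30.8 in the complemented set and 17.1 in the control-lentivirus set. USP28 stood at -1.08 in both sets, and USP48 at -0.55 in the complemented set and -0.87 in the control-lentivirus set.

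The giant USPs had low densities in both sets. USP34 has a coding sequence of 10638 nt and the highest RNA base mean of all members, 9378 in the complemented set and 8704 in the control-lentivirus set. Its footprint base means were 119 in the complemented set and 79.1 in the control-lentivirus set, which is a density of -2.13 in the complemented set and -2.33 in the control-lentivirus set. Its density in the control-lentivirus set was 0.199-fold that of the middle gene. USP9X had -1.40 in the complemented set and -1.68 in the control-lentivirus set, and USP24 -1.44 in the complemented set and -1.48 in the control-lentivirus set. USP9Y, the counterpart of USP9X on the Y chromosome, had no row.

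Other members were low without being as long. USP38 had a density of -1.93 in the complemented set and -2.47 in the control-lentivirus set, the lowest of all members there, from footprint base means of 30.6 in the complemented set and 18.0 in the control-lentivirus set and RNA base means of 2086 in the complemented set and 2169 in the control-lentivirus set. USP25 had -1.77 in the complemented set and -2.31 in the control-lentivirus set, below its paralogue USP28 by 0.68 in the complemented set and 1.24 in the control-lentivirus set. At the RNA base means of USP28, the lowest footprint base mean of each set would still give a density above that of USP25. The direction of this difference was therefore set by which genes are listed. USP32, an endosomal USP, had -2.06 in the complemented set and -2.20 in the control-lentivirus set, with 38.7% of its windows shared.

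Of the USPs of membranes and organelles, USP20 and USP33 are paralogues with different levels. USP33 had 748 RNA per kb in the complemented set and 747 in the control-lentivirus set, and USP20 had 162 in the complemented set and 149 in the control-lentivirus set. Density was higher for USP20, by 0.44 in the complemented set and 0.81 in the control-lentivirus set. The direction of this difference cannot be read as a property of the genes. At the RNA base mean of USP20, the lowest footprint base mean of the complemented set would still give a density above that of USP33. In the control-lentivirus set it would give one about equal to that of USP33. USP8, which deubiquitinates cargo receptors at endosomes, had -0.95 in the complemented set and -1.07 in the control-lentivirus set. USP19, with a form anchored in the endoplasmic reticulum, had -0.31 in the complemented set and -0.16 in the control-lentivirus set. USP30, the USP of the mitochondrial outer membrane, was listed in the control-lentivirus set only, at -0.25.

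USP39, a spliceosomal protein that lacks deubiquitinase activity, had 0.00 in the complemented set and 0.22 in the control-lentivirus set. USP53 and USP54, which differ from other USPs in the catalytic domain, were low, USP54 with -1.03 in the complemented set and -0.87 in the control-lentivirus set, and USP53 with -2.07 in the control-lentivirus set. USP53, USP43, USP30, UBE2E2 and UBE2F-SCLY were the 5 members listed in the control-lentivirus set only. Their footprint base means there were 12.2, 10.3, 10.6, 13.5 and 14.9, in that order. No gene of the complemented set had 20 or fewer, and none of the control-lentivirus set was below 10.0, so members with fewer footprints do not appear, and the densities above describe the listed members only. For a gene with little RNA these limits also set the lowest density it can show. UBE2E2 in the control-lentivirus set and UBE2D1 in the complemented set could not have been listed below 0. In both sets UBE2D1 could not have been listed below UBE2D2 or UBE2D3, nor USP28 below USP25. The same held for USP20 against USP33 in the complemented set.

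The difference in density between the families stood beside a difference in length. E2 coding sequences had a median of 549 nt, USP coding sequences one of 2943 nt, and all genes one of 1410 nt. Density was lower in longer genes throughout the table. In the control-lentivirus set the median density was 1.00 in the shortest 10% of genes (up to 510 nt) and -1.03 in the longest 10% (3660 nt and more). The shortest 10% hold 14 of the 29 E2 genes, and the longest 10% and the 10% next to them hold 8 and 14 of the 33 USP genes. Spearman's rho between density and coding length over all genes was -0.59 in the complemented set (7422 genes) and -0.54 in the control-lentivirus set (8646 genes). Among genes with an RNA base mean above 1000 the medians of the same 2 length groups, shortest first, were 0.58 and -1.04 in the complemented set, and 0.77 and -1.15 in the control-lentivirus set. At this cut the complemented set had medians of -0.14 for E2 (13 genes), -0.99 for USP (22 genes) and -0.32 for all genes. The control-lentivirus set had -0.18 for E2 (11 genes), -1.20 for USP (24 genes) and -0.44 for all genes. The E2 medians were thus below 0 there, unlike those over all E2 genes.

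Genes were also divided into 10 equal groups by coding length and each was centred on its own group, a choice made once the data had been seen. The families then came close to each other. In the complemented set the E2 median was -0.28 and the USP median -0.17, and in the control-lentivirus set the E2 median was -0.28 and the USP median -0.41. The E2 median thus lay below the USP median in the complemented set and 0.14 above it in the control-lentivirus set, where the gap was 1.34 before. With length matched, 20 of 29 E2 genes and 23 of 33 USP genes were below 0 in the control-lentivirus set. UBE2O (1.35) and UBE2Z (0.72) were then the highest E2 genes, and USP11 (1.57), USP5 (1.11) and USP19 (0.87) the highest USP genes in that set. UBE2D3 (-2.15), UBE2E3 (-1.97) and UBE2D2 (-1.82) were the lowest E2 genes, and USP38 (-1.87), USP25 (-1.72) and USP1 (-1.64) the lowest USP genes. Of the 4 E2s listed for K48 chains only UBE2K (0.05) stayed above 0. UBE2T was at 0.60, UBE2A at 0.24 and UBE2B at 0.05.

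**Figure D4:**
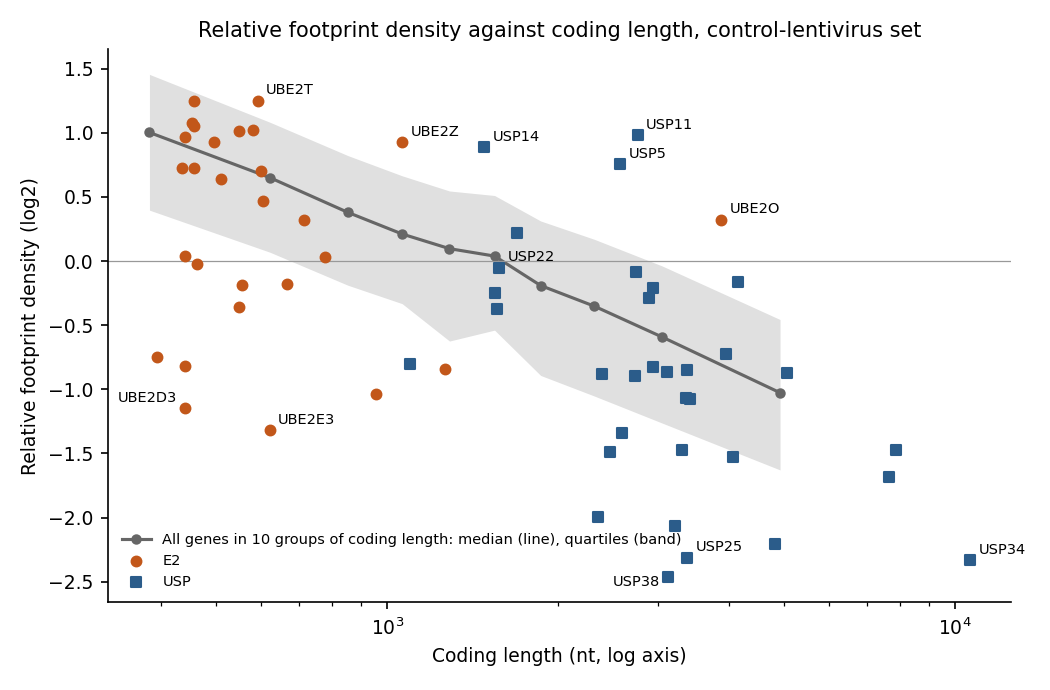
Coding length (x axis, nt, log axis) against relative footprint density (y axis, log2) in the control-lentivirus set for E2 genes (circles, 1 not drawn) and USP genes (squares), with the median (line) and quartiles (band) of all genes in 10 groups of coding length. All genes run down from a median of 1.00 to one of -1.03, and UBE2O, USP11, USP5 and USP14 lie above the band for their length while UBE2D3, UBE2E3 and USP38 lie below it.

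Within the USP family, density went with the length of the 5′ UTR of the canonical transcript. Spearman's rho was -0.59 in the complemented set (30 genes) and -0.70 in the control-lentivirus set (33 genes), against -0.43 and -0.47 over all genes in the same order. For the E2 genes it was -0.08 in the complemented set and -0.28 in the control-lentivirus set. The 12 USP genes with a 5′ UTR of up to 150 nt had a median density of -0.27 in the control-lentivirus set, the 12 with more than 150 and up to 300 nt one of -0.98, and the 9 with more than 300 nt one of -1.99. For the E2 genes the medians in these groups were 0.73 (16 genes), -0.07 (8 genes) and 0.32 (5 genes), and for all genes 0.31, -0.37 and -0.91. With length matched, rho in the USP genes was -0.45 in the complemented set and -0.58 in the control-lentivirus set. USP density also went with the GC content of the coding sequence. That rho was 0.41 in the complemented set and 0.55 in the control-lentivirus set, against 0.12 and 0.10 over all genes. With length matched it was 0.44 and 0.56 in the USP genes, in the same order.

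**Figure D5:**
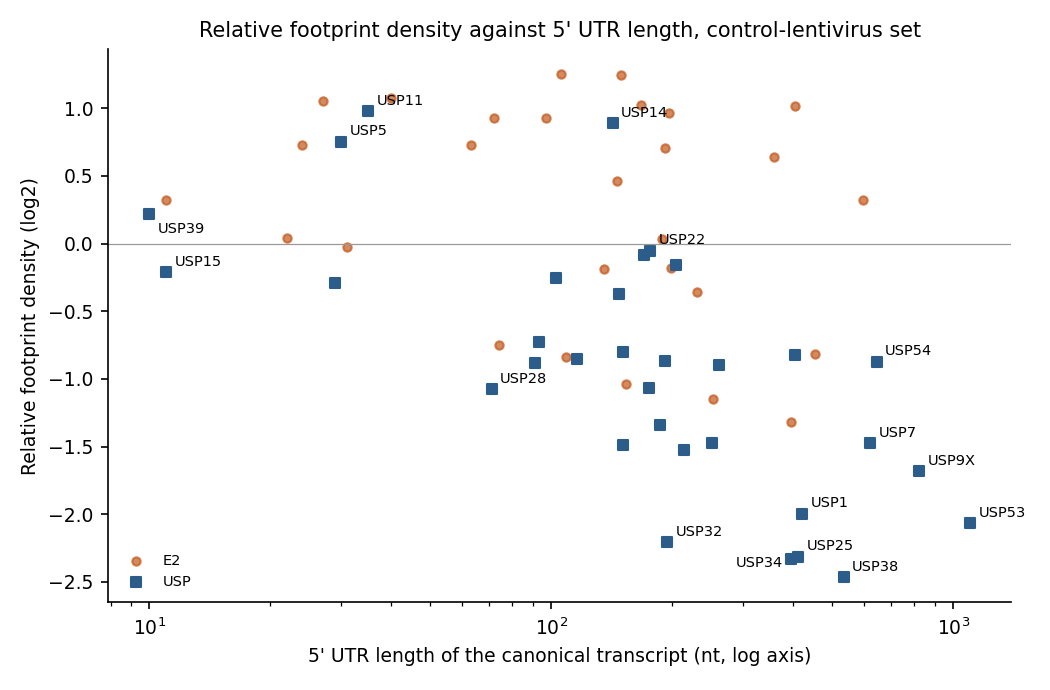
Length of the 5′ UTR (x axis, nt, log axis) against relative footprint density (y axis, log2) in the control-lentivirus set, squares for the 33 USP genes and circles for the E2 genes, 1 of which is not drawn. USP11 and USP5 have short 5′ UTRs and high densities, the 9 USP genes with more than 300 nt lie between -2.47 and -0.83. The E2 genes are more scattered, with a rho of -0.28.

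Single genes show both ends of the relation with 5′ UTR length. USP11 has a 5′ UTR of 35 nt, USP5 one of 30 nt and USP39 one of 10 nt, and these are among the 4 USPs above 0 in the control-lentivirus set. USP38 has 534 nt, USP34 395 nt, USP25 412 nt, USP1 421 nt and USP53 1102 nt, all at or below -1.99. USP15, with 11 nt, and USP28, with 71 nt, were nonetheless below 0. Among E2 genes, UBE2R2 has the longest 5′ UTR, 598 nt, with a density of 0.32 in the control-lentivirus set. The annotation may not match the start sites these cells use, which was not tested. A purine stands 3 bases before the start codon in 28 of 29 E2 genes and 31 of 33 USP genes, against 88.4% of all genes of the control-lentivirus set.

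The families were also set side by side between the sets. The median centred difference in density, complemented minus control-lentivirus, was 0.01 for the 27 E2 genes and 0.09 for the 30 USP genes, where all 7386 shared genes are at 0 by construction. No test bears on these medians. Of the E2 genes 14 were positive and 13 negative, and of the USP genes 19 and 11. All 13 USP genes and all 3 E2 genes with a density below -1 in the control-lentivirus set had a positive difference, as did 84.8% of all genes in that range, so a positive value there is not particular to the members. Among members with footprint base means of at least 50 in both sets, UBE2H (0.31) and UBE2M (0.26) had the most positive differences of the E2 genes and UBE2A and UBE2N (both -0.28) the most negative. For the USP genes these were USP7 (0.43) and USP48 (0.39), and USP5 (-0.25) and USP11 (-0.24). None of these passes the 95th percentile of all shared genes.

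The rest of the pathway was listed beside the members in part. Of 9 E1 enzymes or subunits 8 had a row, 6 of them above 0, with a median of 0.01 in the complemented set and 0.19 in the control-lentivirus set. UBA1, the main E1 for ubiquitin, had a footprint base mean of 521 in the control-lentivirus set, more than any E2 or USP gene. Per kb its footprint level there was 164, against 167 for UBE2N, so it did not lead the E2 genes by this measure. It was still above every USP gene per kb, the highest of which was USP22 with 141. Of 34 deubiquitinases outside the USP family 22 had a row in the control-lentivirus set, with 9 above 0 and 13 below and a median of -0.25, which lies between the E2 and USP medians. Their median coding length, 1304 nt, lies between those of the families as well.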

How the data were processed

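Ribosome profiling and RNA-seq were made from 2 biological replicates of each of 4 conditions. The authors removed adapters, duplicates by molecular identifier and reads from structural and other small RNAs, aligned to hg38 (the submitters' processing notes list STAR 2.6.0a, Bowtie2 and cutadapt), counted reads over coding sequences with Ribo-seQC and normalized them with DESeq2. Their annotation release is not given in the sources used here. As unit served the deposited base mean, a mean of size-factor normalized counts over the 4 libraries of an assay in a set, made by the authors. The deposited tables also hold the authors' DESeq2 log2 fold changes, adjusted p-values and gene classes for IAA against DMSO and DDX3Y against DDX3X. These were not used, so no change between conditions is given here. No column of other samples was present (0 found).

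Gene IDs were matched, without version, to Ensembl canonical transcripts of GENCODE v44 (99.9% of genes in both sets), whose coding length without the stop codon gave levels per kb. RefSeq protein lengths, planned first, were not used here. Relative footprint density is log2(footprint/RNA) minus its median over all genes of the set (-4.17 in the complemented set and -4.45 in the control-lentivirus set, before centring). The search for shared 28-nt and 65-nt windows covered both strands of the main chromosomes and all canonical coding sequences, with Python 3.11.15, numpy 2.4.6 and numba 0.67.0. It was tested on simulated data. Coding sequences of paralogues were aligned globally. Genes named per family were the 5 highest and 3 lowest RNA levels, the 4 highest and 4 lowest densities among genes with a footprint base mean of at least 50, the 3 largest differences between sets in each direction, those in 1 table, paralogue groups and at least 1 gene per role. Others were named after their values were seen. Members and lists were chosen with earlier results of these data known. Samples were grouped by their labels. No test was made, and the precision per library is unknown. Some items are not reported here, and family counts and medians include them.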

Additional observations from a re-analysis of the deposited data

How the results depend on the processing

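No paired analysis was possible because the result comes from no test and the columns used hold no value per library, and for the same reason no replicate could be left out. Values below are log2. Without division by coding length, the E2 median relative to all genes was -0.17 for RNA and 0.27 for footprints, against 1.12 and 1.58 with it, and the USP median was 0.72 for RNA and 0.13 for footprints, against -0.04 and -1.60. The order of the families in RNA level thus rests on the division by length. For footprints the E2 median stayed above the USP median without it, but the gap was much smaller and the USP median was no longer below that of all genes. With genes above a footprint base mean of 20, the E2 RNA median was 0.77. Above 100, where 3 E2 and 3 USP genes remain, the USP density median was 0.21 and the E2 median minus the USP median 0.17. The following alternatives were chosen after seeing the data. Within 10 groups of coding length, the density medians were -0.28 for E2 and -0.41 for USP, 0.14 apart. Without members that share more than 10% of their 28-nt windows, the E2 median was 0.82 and the gap 1.68. With both changes, the medians were -0.052 for E2 and -0.30 for USP and the gap 0.25. The other values moved by less than 0.33, a spread of single genes, so this is no test of how stable a median is. Footprint numbers limit the precision of single genes.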
